A study of Homo sapiens with 4 samples.

Results

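The genes described here were AGER, which encodes the receptor RAGE, 2 HMGB ligand genes (HMGB1 and HMGB2), 6 S100 ligand genes (S100A4, S100A6, S100A10, S100A11, S100A13 and S100P) and the effector gene DIAPH1. They were found by gene symbol and made up 10 of the 23228 genes in the count files. The genes were chosen with the comparison of vehicle and LY500307 already known. Their values in that comparison are therefore given as a description and no test is read from them. The samples were labelled as SKOV3 OCSCs, that is, ovarian cancer stem cells sorted for aldehyde dehydrogenase activity (ALDH+) from the established ovarian cancer cell line SKOV3 and grown as spheroids. They received vehicle (2 samples) or 5 µM of the ERβ agonist LY500307 (2 samples) for 24 h before RNA sequencing. No source used here says whether the replicates came from separate cultures, so their spread may be technical.

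RAGE is a cell surface receptor of the immunoglobulin superfamily. It was named for its binding of advanced glycation end products (AGEs), and it also binds proteins that are released from damaged or activated cells, among them HMGB1 and several small calcium-binding S100 proteins. The formin DIAPH1 binds the cytoplasmic tail of the receptor and couples it to the actin cytoskeleton, and signalling runs on to MAP kinases and NF-kB. In normal tissue, AGER is best known from the alveolar epithelium of the lung.

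Reads counted on genes ranged from 28841701 to 34943882 per sample, so that a gene without reads could still have had a level of 0.0864 to 0.106 CPM (3 counts in a library). CPM is the usual depth-scaled read count, computed here on TMM-scaled library totals. The 2 LY500307 samples differed more from each other than the 2 vehicle samples did. A chi-square test of the gene counts gave 42.5 per degree of freedom for the LY500307 pair and 5.16 for the vehicle pair. A differentially expressed gene (DEG) was called at the cutoffs of the study, which ask for p under 0.05 before adjustment together with a log2 fold change beyond 0.5 in either direction. The study used DESeq2, whereas the p-values here came from edgeR. By edgeR's quasi-likelihood test, 669 of 14473 tested genes met these criteria, and 581 did so under DESeq2. No gene (0) had an adjusted p below 0.05, 1678 had an unadjusted p below 0.05, and under DESeq2 the adjusted p was below 0.05 for 20 genes. For a single gene, an exact permutation test of 2 against 2 samples cannot give a two-sided p below 0.333.

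The markers went partly against the label. EPCAM, an epithelial surface protein, was at 194 to 240 CPM and KRT18 at 23.5 to 31.8 CPM. In contrast, the epithelial keratin genes KRT7 and KRT19 had 0 to 2 reads in any sample, the cadherin gene CDH1 had 0 to 4, and PAX8, a transcription factor gene of Müllerian epithelium, had 0 reads in all samples. KRT8 had 9 to 33 reads per sample, MUC16 had 1 to 6 and WT1 had 0 to 2. SKOV3 is known for an amplified ERBB2 gene. Here ERBB2 was at 48.7 to 59.4 CPM, and per length its level was above that of 55.6% of the tested genes with a known length. Of the aldehyde dehydrogenase genes listed as markers, ALDH1A1 had 134 to 185 reads per sample and ALDH1A2 had 315 to 347. Per length, they were above 26.1% and 29.3% of the tested genes with a known length. ALDH1A3 had 8 to 16 reads and ALDH3A1 had 2 to 10. The 6 fibroblast and endothelial markers summed to 462 to 474 CPM with vehicle and 544 to 651 CPM with LY500307. Of the 4 that were tested, the collagen genes COL1A1 and COL1A2 had positive log2 fold changes (0.28 and 0.44), DCN and LUM had negative ones (-0.20 and -0.10), and the endothelial genes PECAM1 and CDH5 had 0 to 4 reads. The part of these markers in the results below was not tested. The 7 leukocyte and erythroid markers summed to 1.40 to 1.65 CPM with vehicle and 1.99 to 2.38 CPM with LY500307, with 0 to 4 reads for PTPRC and 0 to 2 for CD3E. Of the lung alveolar markers, SFTPC, SFTPB, AQP5 and CLDN18 had 0 reads in all samples, and AGER itself was the only one of the 5 genes with reads.

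Of the 10 genes, 9 passed the filter on low counts and 1, S100P, had 0 reads in all samples. The criteria were met by 3 of the 9, AGER in the lower direction and S100A4 and S100A10 in the higher direction. Under DESeq2, AGER and S100A4 met them and S100A10 did not. Over all genes tested, 4.62% met them, 1.86% in the lower and 2.76% in the higher direction. The vehicle and LY500307 samples did not overlap for 5 of the 9 genes, and for 48.6% of all genes tested. Because the genes were chosen with this comparison known, nothing is read from these counts. The upstream sequences of these 3 genes are shown so that their short promoter motifs can be seen. They are the 250 bases before the start that RefSeq gives for each gene on GRCh38.p14, all on the minus strand and written 5′ to 3′. These starts were not matched to the GENCODE gene bodies on GRCh37 given below. A window can therefore lie inside a gene body. Capitals mark matches to the motifs searched on both strands. These were the estrogen response element (ERE, a pair of inverted half-sites with 3 bases between them), its half-site (GGTCA), the GC box (GGGCGG), the AP-1 site (TGANTCA) and the TATA box (TATAAA). The half-site is part of the ERE, so a full ERE would count under both.
AGER, chr6:32184254-32184503: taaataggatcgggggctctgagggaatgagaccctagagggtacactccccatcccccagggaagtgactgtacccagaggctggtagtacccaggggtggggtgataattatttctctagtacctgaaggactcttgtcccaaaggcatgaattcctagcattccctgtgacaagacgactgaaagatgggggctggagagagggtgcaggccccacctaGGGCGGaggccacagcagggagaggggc
S100A4, chr1:153545807-153546056: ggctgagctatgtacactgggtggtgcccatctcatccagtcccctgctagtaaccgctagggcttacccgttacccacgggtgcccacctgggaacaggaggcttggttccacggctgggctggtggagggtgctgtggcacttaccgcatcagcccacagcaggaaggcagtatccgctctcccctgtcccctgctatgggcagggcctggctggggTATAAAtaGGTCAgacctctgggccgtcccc
S100A10, chr1:151993860-151994109: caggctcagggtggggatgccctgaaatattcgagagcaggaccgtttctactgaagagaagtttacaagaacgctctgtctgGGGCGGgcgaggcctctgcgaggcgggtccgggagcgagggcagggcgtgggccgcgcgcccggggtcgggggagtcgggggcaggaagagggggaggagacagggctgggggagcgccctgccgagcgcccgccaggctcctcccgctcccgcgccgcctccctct

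In the AGER window, a single GC box stood at -28 to -23 from the RefSeq start. The S100A4 window held a TATA box at -31 to -26 and an ERE half-site at -23 to -19, and the S100A10 window held a GC box at -167 to -162. These motifs are common, since a GC box was found in 42.6% of 35116 such windows, an ERE half-site in 32.6% and a TATA box in 10.7%. A full ERE was found in 0.0399% of all windows and in 0 of the 13 windows of these genes (9 of the 10 genes had an entry, and HMGB2 had none). The AP-1 site was also in 0 of the 13 windows, against 6.57% of all windows. A match is a match of letters only and says nothing of binding in these cells.

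AGER (ENSG00000204305) lies in the major histocompatibility complex (chromosome 6 of GRCh37, 32148745 to 32152099, minus strand), and its canonical transcript has 11 exons and 1420 nt. AGER had 508 reads in vehicle replicate 1, 465 in vehicle replicate 2, 274 in LY500307 replicate 1 and 175 in LY500307 replicate 2. Each LY500307 sample had fewer AGER reads than either vehicle sample, although the LY500307 libraries held more reads in total. After scaling, the level was 16.7 ± 0.416 CPM (SD, n = 2) with vehicle and 6.65 ± 1.75 CPM (SD, n = 2) with LY500307. The log2 fold change was -1.32 (standard error 0.21), a level 2.50-fold lower. In bulk RNA, fewer cells that express a gene and less RNA per cell cannot be told apart. The LY500307 samples also differed from each other, with 7.89 CPM (95% Poisson interval 6.99 to 8.89) in replicate 1 and 5.41 CPM (4.64 to 6.28) in replicate 2. These intervals cover counting error only, and they did not overlap. In the vehicle samples, the levels of 16.9 CPM (15.5 to 18.5) and 16.4 CPM (14.9 to 17.9) did overlap. Against the mean of both vehicle samples, the log2 difference was -1.07 for LY500307 replicate 1 and -1.61 for replicate 2. All 903 windows of 50 nt inside the AGER exons occurred once in the genome.

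**Figure D1:**
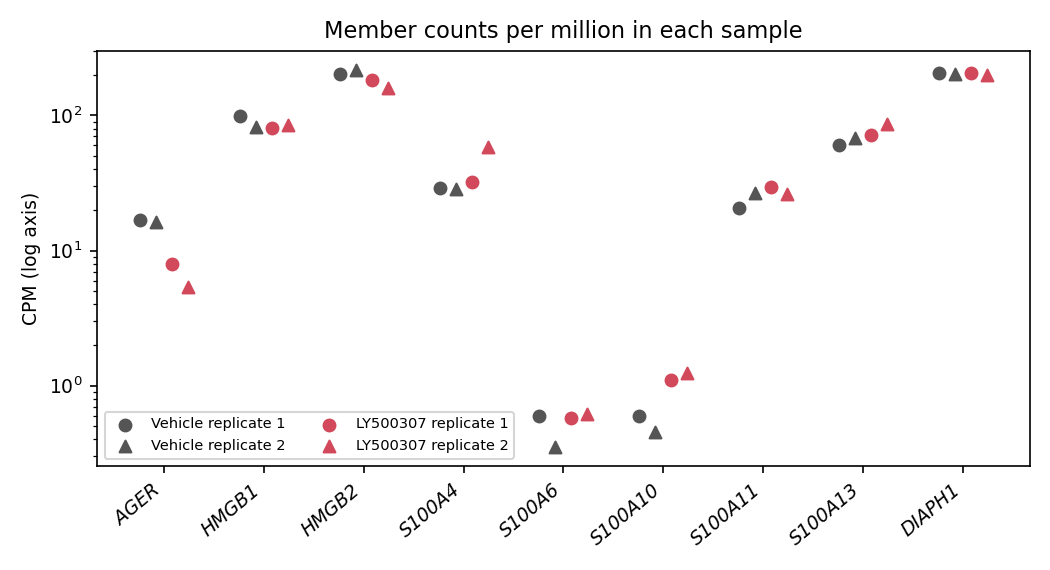
CPM (log axis) of the 9 genes with reads, with a point for each sample, grey for vehicle and red for LY500307, circles for replicate 1 and triangles for replicate 2. AGER is the gene whose LY500307 points sit farthest below its vehicle points, and S100A4 is at 58.5 CPM in LY500307 replicate 2 against 28.4 to 32.4 CPM in the other samples.

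HMGB1 and HMGB2 encode nuclear DNA-bending proteins, and HMGB1 acts outside the cell as an alarm signal through RAGE and Toll-like receptors. HMGB2 (chromosome 4 of GRCh37, 174252527 to 174255583) had 6070 and 6207 reads with vehicle and 6330 and 5170 with LY500307. Its level was 210 ± 11.2 CPM (SD, n = 2) with vehicle and 171 ± 15.9 CPM (SD, n = 2) with LY500307. The groups did not overlap, with LY500307 lower, and the log2 fold change of -0.30 (standard error 0.11) did not reach the 0.5 limit. HMGB1 (chromosome 13 of GRCh37, 31030841 to 31191734) had 99.0 and 82.6 CPM in the vehicle samples and 81.4 and 84.4 CPM in the LY500307 samples. Here the groups overlapped, and the log2 fold change was -0.13 (standard error 0.12). In the exons of HMGB1, 67.7% of the 50 nt windows occurred once in the genome, against 99.9% for HMGB2. Reads with more than a single alignment were tallied apart from the gene counts, so the HMGB1 count stands for part of its transcript. The third gene of the family, HMGB3, was likewise tested (log2 fold change -0.16, standard error 0.10), and HMGB4 had 0 reads.

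The S100 genes differed widely from each other in level. S100A4 encodes a protein that binds non-muscle myosin and is known from cell motility and metastasis. S100A4 (chromosome 1 of GRCh37, 153516089 to 153522612) had 876 and 806 reads with vehicle, 1125 in LY500307 replicate 1 and 1891 in LY500307 replicate 2. The LY500307 samples were both above the vehicle samples, but replicate 1 only narrowly. The level was 28.8 ± 0.614 CPM (SD, n = 2) with vehicle and 45.5 ± 18.4 CPM (SD, n = 2) with LY500307. The fitted log2 fold change was 0.66 (standard error 0.24). Without LY500307 replicate 2, the log2 fold change of S100A4 was 0.17 and the criteria were not met. The gene body overlaps that of S100A3 on the same strand, which had 59 to 113 reads per sample.

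S100A10 and S100A6 were close to the limit of detection. S100A10 is the p11 subunit that pairs with annexin A2 at the plasma membrane. S100A10 (chromosome 1 of GRCh37, 151955391 to 151966335) had 18 and 13 reads with vehicle and 38 and 40 with LY500307. The groups did not overlap, with 0.529 ± 0.101 CPM (SD, n = 2) against 1.17 ± 0.101 CPM (SD, n = 2). The log2 fold change was 1.13 (standard error 0.45), which rested on fewer than 50 reads per sample. The counting interval of vehicle replicate 1 reached up to 0.949 CPM and that of LY500307 replicate 1 down to 0.775 CPM, so they overlapped. Leaving out vehicle replicate 2, LY500307 replicate 1 or LY500307 replicate 2 each ended the call, with log2 fold changes of 0.95, 1.22 and 1.04. S100A6, which encodes calcyclin, had 18 and 10 reads with vehicle and 20 and 20 with LY500307, and its groups overlapped (log2 fold change 0.32, standard error 0.53). ANXA2, the gene of the partner of S100A10, had 144 to 259 reads per sample (log2 fold change -0.02, standard error 0.27). Its pseudogenes ANXA2P2 and ANXA2P3 were counted apart, with 101 to 155 and 17 to 47 reads. The share of 50 nt windows found once was not computed for ANXA2. Its count leaves out reads with more than a single alignment and may stand for part of its transcript. All 50 nt windows in the exons of S100A6 (293) and S100A10 (524) occurred once in the genome.

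S100A13 takes part in the release of the growth factor FGF1. S100A13 (chromosome 1 of GRCh37, 153591263 to 153603836) had 60.3 and 68.0 CPM in the vehicle samples and 71.7 and 86.7 CPM in the LY500307 samples. All LY500307 values were above the vehicle values, and the log2 fold change of 0.30 (standard error 0.13) stayed within the 0.5 limit. The gene overlaps S100A1 on the opposite strand, which had 48 to 79 reads per sample. S100A11, which binds annexin A1, had 20.5 and 26.6 CPM with vehicle and 29.8 and 26.1 CPM with LY500307, so its groups overlapped. Its log2 fold change was 0.25 (standard error 0.16). Among the 5 S100 genes tested, all 5 had a positive log2 fold change, where the median over all genes tested was -5.6e-05. For S100A6 the value was -0.008 without vehicle replicate 2. The genes were chosen on this comparison, so nothing is read from this count. The 6 S100 genes together summed to 111 and 124 CPM in the vehicle samples and to 136 and 173 CPM in the LY500307 samples. S100P, a RAGE ligand known from pancreatic and other carcinomas, had 0 reads throughout.

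DIAPH1 is the effector named above. DIAPH1 (chromosome 5 of GRCh37, 140894583 to 140998622) had 207 and 202 CPM in the vehicle samples and 207 and 200 CPM in the LY500307 samples. The groups overlapped, and the log2 fold change was 0.00 (standard error 0.10).

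**Figure D2:**
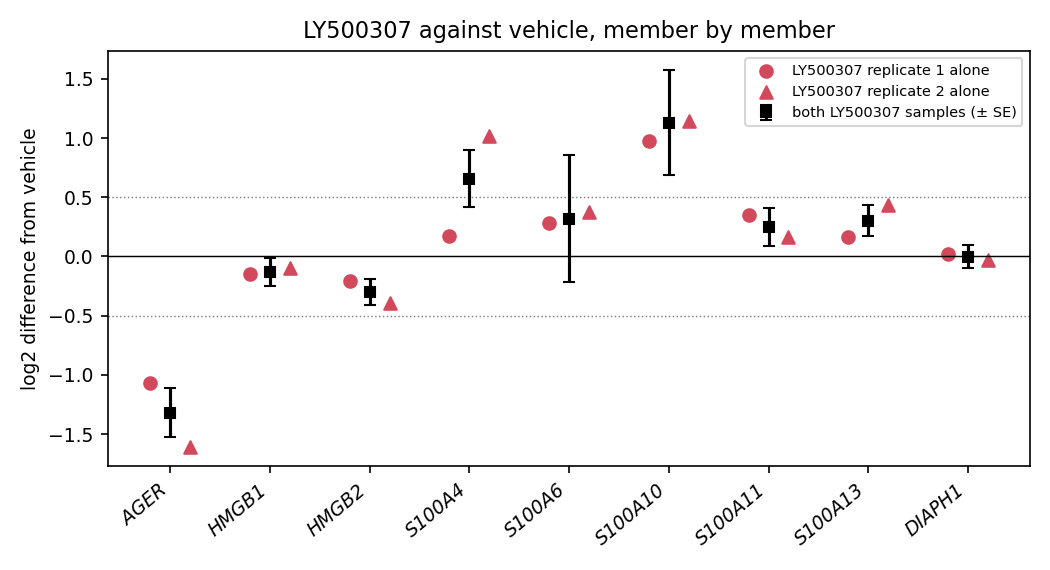
Log2 difference of LY500307 from vehicle for the 9 tested genes, with black squares for the fit on all 4 samples (bars, standard error) and red points for each LY500307 sample alone against the mean of both vehicle samples. Dotted lines mark the 0.5 limit, and for S100A4 the difference is 0.17 in LY500307 replicate 1 and 1.02 in replicate 2.

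Over all genes tested, the LY500307 samples lay both above the vehicle samples in 24.2% and both below in 24.4%. Of the 9 genes tested here, 3 (S100A4, S100A10 and S100A13) were above, 2 (AGER and HMGB2) were below, and 4 (HMGB1, S100A6, S100A11 and DIAPH1) overlapped. The median log2 fold change was 0.25 over the 9 genes and 0.00 over all genes tested.

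Levels can be compared between genes only per length, here as RPKM (CPM per kilobase of the canonical transcript). S100A13 had the highest mean level over the 4 samples at 150 RPKM (126 to 182), followed by HMGB2 at 132 RPKM (111 to 152). These neighbours overlapped in their samples, as did HMGB2 and S100A4 at 72.4 RPKM (55.3 to 114), where the overlap came from LY500307 replicate 2. S100A11 followed at 45.7 RPKM, DIAPH1 at 35.6 RPKM and HMGB1 at 15.9 RPKM. Among these, each pair of neighbours was separated in every sample. The HMGB1 level leaves out reads with more than a single alignment (67.7% of its 50 nt windows occurred once), so it stands for part of its transcript. The receptor AGER came next at 8.21 RPKM (3.81 to 11.9), above 47% of the tested genes, whereas S100A13 and HMGB2 were above 97.4% and 96.9%. S100A10 at 1.26 RPKM and S100A6 at 1.24 RPKM overlapped, above 19% and 18.7% of the tested genes, and S100P was last with no reads. With the length of all annotated exons in its place, HMGB2 led at 79.5 RPKM and S100A13 fell to rank 4 at 32.3 RPKM. S100A11 at 39.7 RPKM then stood above S100A4 at 39.2 RPKM, so the order of these S100 genes depended on the length used. AGER remained at rank 7.

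**Figure D3:**
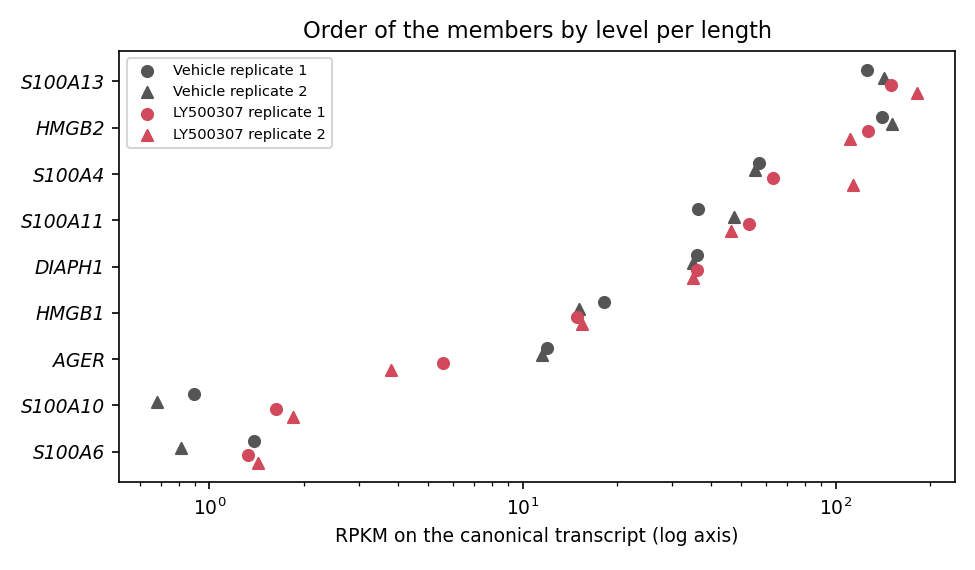
Level of each gene per kilobase of its canonical transcript (RPKM, log axis), ordered by the mean over samples, with grey for vehicle, red for LY500307, circles for replicate 1 and triangles for replicate 2. The 4 AGER points spread from 3.81 to 11.9 RPKM, and S100A10 and S100A6 lie at the bottom between 0.682 and 1.84 RPKM.

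The other genes of the RAGE pathway were taken from lists by role. The lists held 110 genes in the files, of which 75 were tested and 2 met the criteria, both in the higher direction, where 4.62% of all tested genes met them. The 2 genes were ANXA1 and AHNAK, and each had an adjusted p of 0.422 over all genes by edgeR. The median log2 fold change of the 75 genes was 0.05, with 41 positive and 34 negative.

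Among further S100 genes, 5 of 14 were tested and 0 met the criteria. The log2 fold change was positive for 4 of the 5 (median 0.46) and negative for S100A1 (-0.31, standard error 0.35). S100A16 and S100A9 each had 0.46 (standard errors 0.73 and 0.76), on 4 to 16 and 4 to 15 reads per sample. S100A3 with a log2 fold change of 0.43 and S100A2 with 0.58 were in this group, with 10 to 113 reads per sample. The genes S100A8, S100A9, S100A12 and S100B, which encode the best-known inflammatory RAGE ligands, had at most 15 reads in any sample. Of the remaining ligand genes, APP was at 668 to 750 CPM (log2 fold change -0.02, standard error 0.11). The sheddase gene ADAM10, whose protease releases the RAGE ectodomain, was at 190 to 206 CPM (log2 fold change -0.07, standard error 0.10).

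For the other receptors of AGEs, HMGB1 or S100 proteins, 0 of 11 tested genes met the criteria. The basigin gene BSG was at 510 to 568 CPM, and the AGE receptor component genes PRKCSH and DDOST were at 283 to 350 CPM and 222 to 280 CPM, with log2 fold changes of 0.10, -0.08 and 0.21. TLR4, the gene of another HMGB1 receptor, had 54 and 65 reads with vehicle and 105 and 85 with LY500307 (log2 fold change 0.47, standard error 0.29). Of the 10 tested formin genes related to DIAPH1, 0 met the criteria, and the formin genes FMNL2 and FHOD1 had log2 fold changes of -0.21 and 0.07. The largest difference in that list was that of FHOD3 (-0.60, standard error 0.31).

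Among the 26 signalling intermediates, all were tested and 0 met the criteria, with a median log2 fold change of 0.06. The small GTPase gene RHOA was at 440 to 468 CPM (log2 fold change 0.07, standard error 0.10), and the log2 fold changes of the kinase genes MAP2K1 and AKT1 were 0.12 and -0.10. The log2 fold change of RELA, an NF-kB subunit gene, was -0.03. MYD88, an adaptor, had the largest difference in this list at 0.76 (standard error 0.50), on 12 to 30 reads per sample.

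Of the 18 RAGE target genes described here, 5 were tested and 0 met the criteria, with a median log2 fold change of -0.17. The inflammatory targets IL6, IL8, IL1A and SELE had 0 reads in all samples, and VCAM1 had 0 to 4. Among the targets with reads were the early response gene EGR1 (log2 fold change -0.17, standard error 0.18) and the angiogenic growth factor gene VEGFA (-0.29, standard error 0.11).

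Of the 9 genes of S100 binding partners, all were tested and 2 met the criteria, where 4.62% of all tested genes met them. The list was chosen with earlier results of these data known, so nothing is read from this count. ANXA1, the annexin that binds S100A11, had 299 and 307 reads with vehicle and 649 and 715 with LY500307 (log2 fold change 0.97, standard error 0.16). AHNAK, a giant scaffold protein gene of the annexin A2 and S100A10 complex, had 3143 and 2690 reads with vehicle and 4854 and 4664 with LY500307 (log2 fold change 0.51, standard error 0.10). The call of AHNAK was lost without vehicle replicate 2 and without LY500307 replicate 2. MYH9, the myosin partner of S100A4, had a log2 fold change of -0.06, and FGF1, the cargo of S100A13, of -0.33 (standard error 0.18). Of the 6 enzymes that limit glycation, 0 met the criteria. GLO1, the glyoxalase that clears the AGE precursor methylglyoxal, stood at 374 to 421 CPM with a log2 fold change of 0.06, and PARK7 and the aldose reductase gene AKR1B1 had 0.21 and 0.48.

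**Figure D4:**
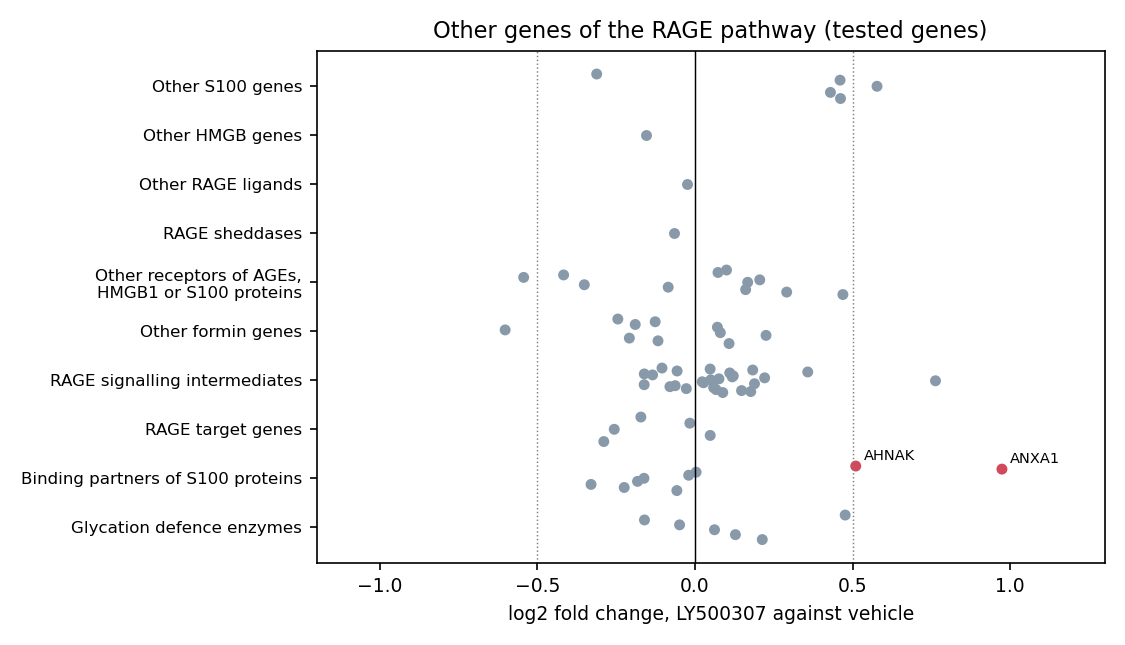
Log2 fold change (LY500307 against vehicle) of the tested genes in each pathway list, with a point for each gene, red where the DEG criteria were met, and dotted lines at the 0.5 limit. Only ANXA1 and AHNAK are red, and most points lie within the limit.

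The genes around AGER did not all have its direction. Within 50000 bp of AGER, 9 other genes were in the files and 8 were tested, of which 4 had a negative and 4 a positive log2 fold change. For PRRT1, PPT2-EGFL8, EGFL8 and PBX2, both LY500307 samples lay below both vehicle samples. For AGPAT1 both lay above, and the other tested neighbours overlapped. Over all genes tested, 24.4% lay below and 24.2% above. The nearest tested neighbour was PBX2, a homeobox gene 411 bp upstream on the same strand, at 230 to 234 CPM with vehicle and at 175 and 227 CPM with LY500307 (log2 fold change -0.21, standard error 0.13). On the other side, AGPAT1, a phosphatidic acid synthesis gene 2872 bp away, had a small positive value (log2 fold change 0.16, standard error 0.10). RNF5, a ubiquitin ligase gene that ends 175 bp from AGER on the opposite strand, had 0 to 1 reads, and 54.3% of the 50 nt windows in its exons occurred once in the genome. EGFL8, which lies 12687 bp away, was the 1 of 8 tested neighbours to meet the criteria, against 4.62% of all genes tested. EGFL8 had 20 and 33 reads with vehicle and 16 and 4 reads with LY500307. Its log2 fold change of -1.61 had a standard error of 0.67, and its gene body lies within the readthrough gene PPT2-EGFL8 (-1.08, standard error 0.62, 7 to 14 reads). PRRT1, 27885 bp away, was at -0.49 (standard error 0.16), just within the limit. The Notch receptor gene NOTCH4 had 0.01 (standard error 0.52), GPSM3 had 0.15 (standard error 0.34) and PPT2 had 0.24 (standard error 0.17).

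**Figure D5:**
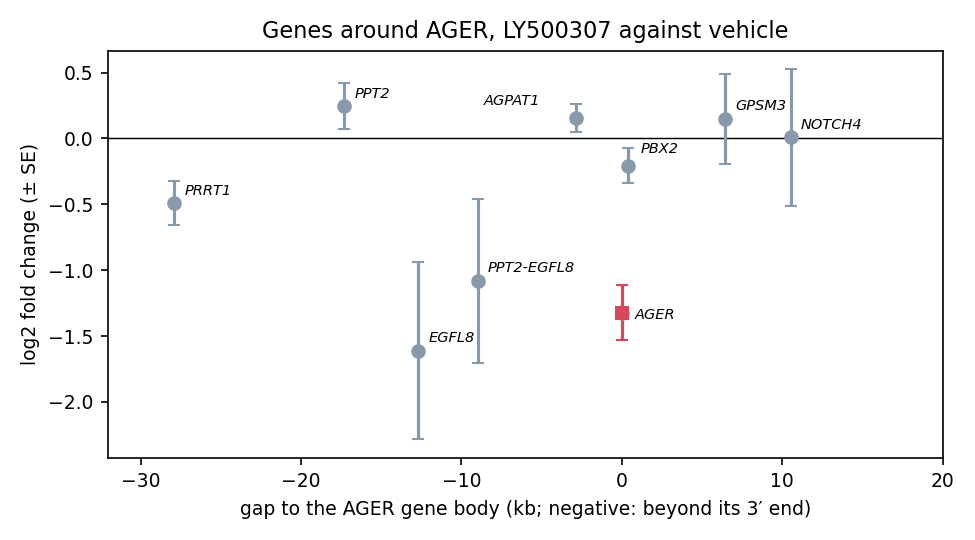
Log2 fold change (bars, standard error) of tested genes against their distance from the AGER gene body in kilobases, with AGER in red. EGFL8, PPT2-EGFL8 and PRRT1 lie lowest of the neighbours, all beyond the 3′ end of AGER. EGFL8 and PPT2-EGFL8 have the widest bars together with NOTCH4, and PRRT1 is at -0.49 (standard error 0.16). The other neighbours lie between -0.21 and 0.24.

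The genes whose pattern over the 4 samples was most like that of AGER were found by the Euclidean distance between centred log2 CPM values. The nearest were FABP5 (distance 0.17), PDK4 (0.21), PAN3-AS1 (0.26), SNORD57 (0.27) and CALML6 (0.29). FABP5, a fatty acid binding protein gene, had 5 to 20 reads per sample, and PDK4, a pyruvate dehydrogenase kinase gene, had 8 to 22. PAN3-AS1 had the most reads of the 5, with 312 and 248 in the vehicle samples and 188 and 109 in the LY500307 samples. The likeness over 4 samples is given as a description.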

How the data were processed

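RNA sequencing of the 4 samples was analysed from gene counts. Per the labels, the submitters' processing notes name bcl2fastq, TopHat2 2.0.8b, HTSeq and hg19, and the authors deposited raw counts per gene symbol without normalization. Per the labels these were TruSeq Total RNA preparations sequenced from a single end (50 nt), whereas the methods of the study describe stranded mRNA libraries. The strand setting and annotation of the counting are not given in the sources used here, so genes that overlap on opposite strands are uncertain. Depth is given as the sum of counts on genes. The tally lines for reads outside genes or with several alignments held 50.0% to 54.4% of tallied reads and were left out.

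Differences were fitted with edgeR 4.0.16 under R 4.3.3 (TMM, filterByExpr, quasi-likelihood test, Benjamini-Hochberg adjustment over all genes). The standard error is the absolute log2 fold change divided by the square root of F. Positions and lengths came from GENCODE on GRCh37, to which 85.0% of the symbols in the files were matched. Upstream sequences came from RefSeq. The procedure was tested on simulated counts. The 10 genes and the pathway lists were chosen with earlier results of these data known. In the pathway lists, 1 gene is not reported here and was left out of their counts. The genes named are these 10, listed genes that met the DEG criteria or were among the 3 with the highest mean CPM in their list, genes near AGER and the 5 genes most like AGER. Other genes named (among them TLR4, FHOD3, MYD88, ANXA2, RELA, FGF1, S100A9 and genes with few reads) were chosen after their values were seen. Alternatives were DESeq2 1.42.0, edgeR with the DESeq2 size factors or with plain library totals, other filters, a replicate block and leaving out each sample. The length of all exons was added after the data were seen.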

Additional observations from a re-analysis of the deposited data

How the results depend on the processing

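When single samples were left out, the number of DEGs had a lowest value of 352 (LY500307 replicate 2 omitted) and a highest of 1987 (LY500307 replicate 1 omitted), against 669 with all samples. The number of the 10 genes that met the criteria ranged from 1 to 3, the number of pathway list genes from 1 to 6 (against 2 with all samples; 4 without vehicle replicate 1, 6 without LY500307 replicate 1, and 1 without either of the other samples), and the log2 fold change of AGER from -1.62 to -1.07. In these fits the lone sample of a group is assumed to vary like the other group. All alternatives draw on the same 4 samples, whose comparison was known when the 10 genes were chosen, so nothing is read from a call that recurs. AGER met the criteria and kept its direction in all 10 alternatives. S100A4 met them in 9 of 10, the exception being the fit without LY500307 replicate 2, and S100A10 in 5 of 10, since DESeq2 and the replicate block also ended its call. HMGB1, S100A6 and DIAPH1 changed sign in at least 1 alternative and met the criteria in none. With the replicate number as a block, 717 genes met the criteria, 2 of the 10 genes and 2 pathway list genes among them, and the log2 fold change of AGER was -1.34. Deviations of same-numbered samples had a correlation of -0.07, which gives no pairing. Genes with an adjusted p below 0.05 numbered 0 with edgeR, 20 with DESeq2 and 1 with the block, and 590 and 5002 with edgeR when LY500307 replicate 2 or 1 was omitted, and the cause was not tested. With library totals alone, the median log2 fold change of all genes was 0.04 and 69.7% of the DEGs were higher, against 59.8% with TMM. Without a length, DIAPH1 ranked 1 and S100A13 ranked 4 by CPM. Depth limits S100A6, S100A10 and S100P, with 0 to 40 reads per sample.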
